A study of Mus musculus with 6 samples.

Results

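Genomic imprinting silences a gene on the chromosome inherited from either the mother or the father, so that only the other copy is transcribed. Many imprinted genes act on growth: they are expressed strongly in the fetus and fall silent or near silent in most tissues after birth, and skeletal muscle is among the tissues where several of them stay detectable. The 10 imprinted growth genes described here lie at 6 separate loci. On chromosome 12 the Dlk1-Meg3 domain holds the protein-coding gene Dlk1, expressed from the paternal copy, and the long noncoding RNA genes Meg3, Rian and Mirg, expressed from the maternal copy. On chromosome 7 the growth factor gene Igf2 is expressed from the paternal copy and the noncoding RNA gene H19 from the maternal copy. The remaining members are Grb10 on chromosome 11, expressed from the maternal copy in muscle, and the paternally expressed genes Plagl1 on chromosome 10, Peg3 on chromosome 7 and Mest on chromosome 6. The arrays read total RNA of each gene and cannot tell the parental copies apart.

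Members were taken by symbol: every probe set annotated to one of the 10 genes was used, which gave 34 of the 45101 probe sets of the array. The array annotation holds 18193 genes with a probe set of their own. H19 is not among those, because its single probe set also carries the symbol of Mir675, a microRNA gene lying within H19, and it is given as H19/Mir675. Of the 34 probe sets, 29 had a mean signal over all 6 libraries at or above 15.0, the 40th percentile of all probe sets. A dim probe set could therefore pass through its deficient values alone. The 5 dimmer ones (1 each of Meg3, Igf2 and Plagl1, and 2 of Peg3) stayed between 0.3 and 20.8 signal units in all libraries and are not compared. The gene list was drawn up with the difference between deficient and wild type muscle already in view. The differences of the members are therefore descriptions, given without p-values. Where members are counted among the genes that a fit over all genes called, the count repeats the choice and supports nothing.

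The mice compared were all 4 weeks old and of 2 kinds, with 3 animals of each and 1 Affymetrix array per animal. The first kind lacked laminin alpha 2 chain, per the labels, and the second was wild type. Laminin alpha 2 is the chain that lets the laminin of the muscle basement membrane bind its receptors on the fibre, and its loss causes a congenital muscular dystrophy. RNA came from the whole musculature of the hind limb, and the sources used here do not name the allele, strain or sex of the animals. Signals are linear array units. Each difference subtracts the wild type mean of log2(signal + 16) from the deficient mean and is given with its standard error (SE). The added constant makes changes of dim genes look smaller than they are. Probe sets of different genes bind with different strength, so levels are compared between libraries. Where the probe set with the highest signal of a marker list is named, this ranks signals and not amounts of RNA.

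Lama2, the gene of the missing chain, read 82, 31.1 and 140.4 in deficient replicates 1 to 3, against 428.7, 415.6 and 326.2 in wild type replicates 1 to 3. All 10 fibre markers passed the filter, and their summed signal overlapped between the groups, at 82973 to 111635 in deficient and 103532 to 110727 in wild type libraries. By limma 0 of the 10 were called, with 3 at an unadjusted p under 0.05 (limma adjusted p = 0.139 for Myh7 and 0.175 for Mb), and Tnni2 was the brightest. Over all 13104 genes tested by limma, 2479 had an unadjusted p under 0.05, the background for all such counts below. Several library features moved with the groups or split them. The signal ratio of the 5 prime to the 3 prime actin control was 0.51 to 0.819 in deficient and 1.036 to 1.151 in wild type libraries, while that of Gapdh overlapped (0.886 to 1.149 in deficient, 0.961 to 1.193 in wild type). The summed hair follicle and keratinocyte markers read 137.2, 136.9 and 117.3 in the deficient libraries, against 1902, 894.5 and 154.2 in the wild type libraries. The Y-linked Eif2s3y was at 414.6, 573.7 and 9.1 in deficient and 474.1, 466.8 and 10.7 in wild type libraries, so replicate 3 of each group lacked Y-linked transcripts. Xist read 396.3, 16.1 and 1839.1 in deficient and 1.4, 19.1 and 1163.1 in wild type libraries, so deficient replicate 1 carried both kinds of transcript. The part of these features in the results below was not tested, except where values without a library are given. In whole muscle, more cells of a type cannot be told apart from more RNA per cell.

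In the brightest probe set of each gene, all 10 members had a higher mean in deficient muscle, the 5 that are expressed from the paternal copy and the 5 expressed from the maternal copy alike. The ratios of the group means ran from 1.43 for H19/Mir675 to 8.99 for Dlk1. In 8 of the 10 genes every deficient library was above every wild type library, and H19/Mir675 and Mest overlapped. By limma across all 13104 genes, 8 of the 9 members with a probe set of their own were among the genes called higher at an adjusted p under 0.05. In the fit over 27026 probe sets, the same probe sets of Meg3 and Plagl1 were not called. Over all genes, 1.25% were called higher, and 12.3% had all deficient values above all wild type values. Since the members were chosen on this contrast, nothing is read from their share. The count of 8 changed when 1 library was left out: it was 6, 3 and 8 without deficient replicates 1, 2 and 3, and 3, 2 and 4 without wild type replicates 1, 2 and 3. In the same fits the genes called in all fell to 145 and 75 without deficient replicates 1 and 2 and to 64, 70 and 222 without wild type replicates 1, 2 and 3, and were 665 without deficient replicate 3. The differences of Rian, Mirg and Grb10 stayed at 1.29 to 1.78, 1.62 to 2.03 and 1.06 to 1.21 over these fits, and those of Meg3, Peg3 and Mest spanned 1.36 to 2.35, 1.40 to 2.34 and 0.58 to 1.72.

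**Figure D1:**
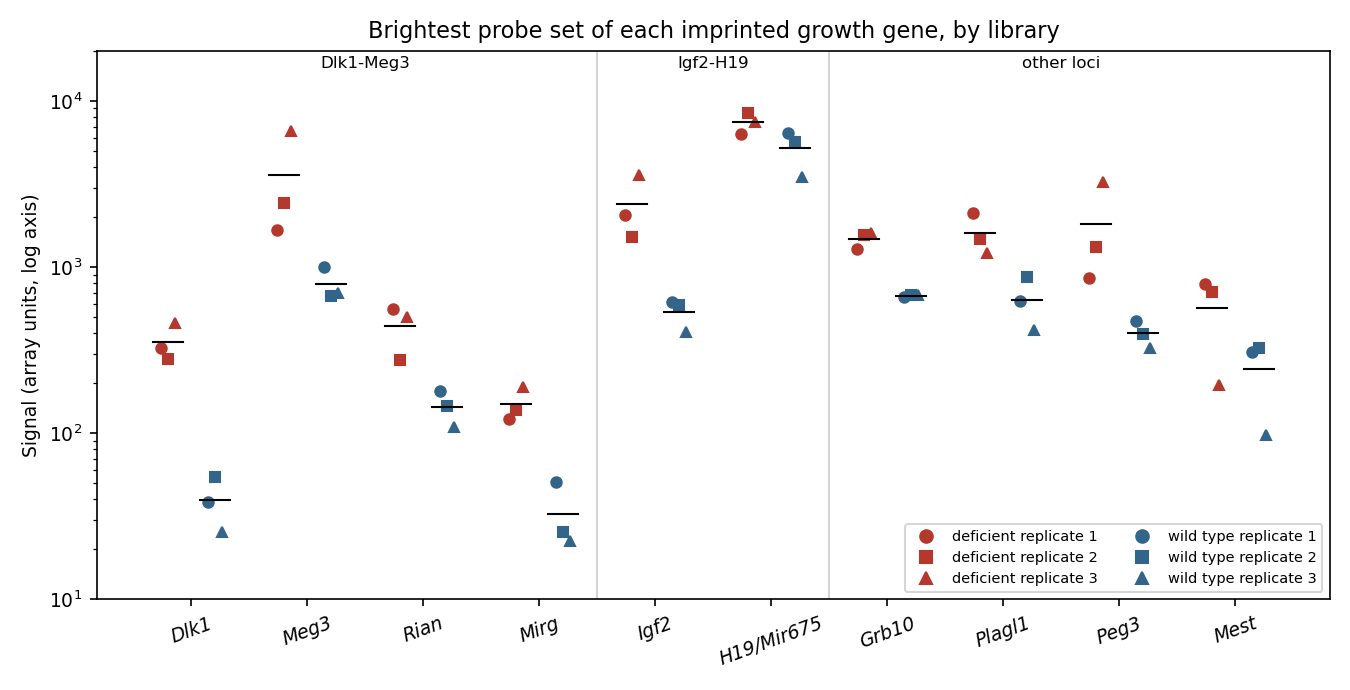
Signal of the brightest probe set of each imprinted growth gene in every library, on a log axis in array units, with deficient libraries (red) left of wild type libraries (blue), replicates as marker shapes and group means as black lines. Deficient libraries lie above wild type libraries in 8 of 10 genes, and the groups overlap for H19/Mir675 and Mest.

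Dlk1 had the largest difference of the members. It encodes a membrane protein with EGF-like repeats, related to the Notch ligands, that is made in fetal tissues, holds back adipocyte differentiation and is needed for normal muscle growth in mice. Its brighter probe set read 327.2, 280.2 and 459.4 in deficient muscle, against 38.5, 54.7 and 25.5 in wild type muscle. The lowest deficient library was thus several times above the highest wild type library, and the log2 difference was 2.75 (SE 0.258), the 14th largest rise of the 13104 genes. The dimmer Dlk1 probe set read 28.5, 30.6 and 45.9 in deficient muscle, against 7.5, 15.7 and 10.9 in wild type muscle. It gave the same order of groups without overlap, with a log2 difference of 0.89 (SE 0.271) near the floor of the array.

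The transcription start windows of Dlk1 and Meg3 are printed because these neighbours, which use opposite parental copies, were both higher in the deficient libraries. Each runs from 250 bases before to 50 bases after the start, from RefSeq for GRCm38.p6, and capitals mark CG dinucleotides, the bases that carry imprinting methylation. The Dlk1 window lies at chr12:109452573-109452872 on the plus strand and the Meg3 window, the first of its 2 annotated starts, at chr12:109540746-109541045 on the plus strand.
Dlk1: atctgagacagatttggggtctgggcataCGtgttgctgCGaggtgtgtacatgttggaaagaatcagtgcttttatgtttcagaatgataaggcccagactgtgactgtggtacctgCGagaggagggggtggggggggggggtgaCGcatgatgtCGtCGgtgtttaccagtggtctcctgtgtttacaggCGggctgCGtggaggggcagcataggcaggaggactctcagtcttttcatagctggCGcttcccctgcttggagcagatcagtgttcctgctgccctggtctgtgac
Meg3: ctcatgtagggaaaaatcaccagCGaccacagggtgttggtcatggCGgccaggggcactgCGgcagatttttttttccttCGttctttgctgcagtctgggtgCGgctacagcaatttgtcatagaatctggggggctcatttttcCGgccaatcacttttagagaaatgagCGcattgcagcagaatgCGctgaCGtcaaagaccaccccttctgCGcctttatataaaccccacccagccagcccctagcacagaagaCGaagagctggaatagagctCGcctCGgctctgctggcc
The Dlk1 window holds 9 CG dinucleotides and the Meg3 window 13, counts reached by 45.78% and 37.91% of the 32851 start windows of the genome. The TATA box letters TATAAA, searched on both strands, occur 2 times in the Meg3 window, where the matches overlap, and 0 times in that of Dlk1. They occur in 13.62% of all windows. The E-box CANNTG, the core bound by myogenic factors, is in neither window and in 72.31% of all windows. A match or its absence says nothing here about binding.

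Meg3, whose long noncoding RNA is a growth suppressor and the maternal counterpart of Dlk1, was read by 11 probe sets, more than any other member. The brightest read 1668.1, 2436.3 and 6604.3 in deficient muscle, against 998.9, 665.5 and 698 in wild type muscle. The groups did not overlap, but deficient replicate 3 stood far above the other deficient libraries, and the log2 difference was 1.93 (SE 0.421). The probe set next in brightness read 1613, 2376.2 and 6664.6 in deficient muscle, against 815.5, 356.6 and 326.2 in wild type muscle. Of the 10 Meg3 probe sets past the filter, 8 separated the groups without overlap and all 10 had a positive log2 difference, from 0.39 to 2.72. The dimmest of these, with wild type means of 11.7 and 3.7, passed the filter only through their deficient values. By limma across 27026 probe sets, 4 of the 10 Meg3 probe sets were called. The brightest was not among these 4, although it gave the call of Meg3 in the gene fit. Over all probe sets, 0.596% were called higher, 0.814% were called lower and 10.8% had all deficient above all wild type values.

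The Meg3 probe sets did not rank the deficient libraries alike. In 8 of the 10 past the filter, deficient replicate 3 was the highest deficient library. The fifth probe set in brightness, which had the largest difference of the Meg3 probe sets at 2.72 (SE 0.282), ran the other way among them: it read 586.4, 714.3 and 352.6 in deficient muscle, against 64.1, 87.8 and 52.8 in wild type muscle. In it, deficient replicate 3 was the lowest of the deficient libraries. In array naming the suffix of that probe set marks probes shared between transcripts. The same suffix stands on the brighter Dlk1 probe set and on another bright Meg3 probe set, which was highest in deficient replicate 3. The sources used here do not say which Meg3 transcripts each probe set reads.

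**Figure D2:**
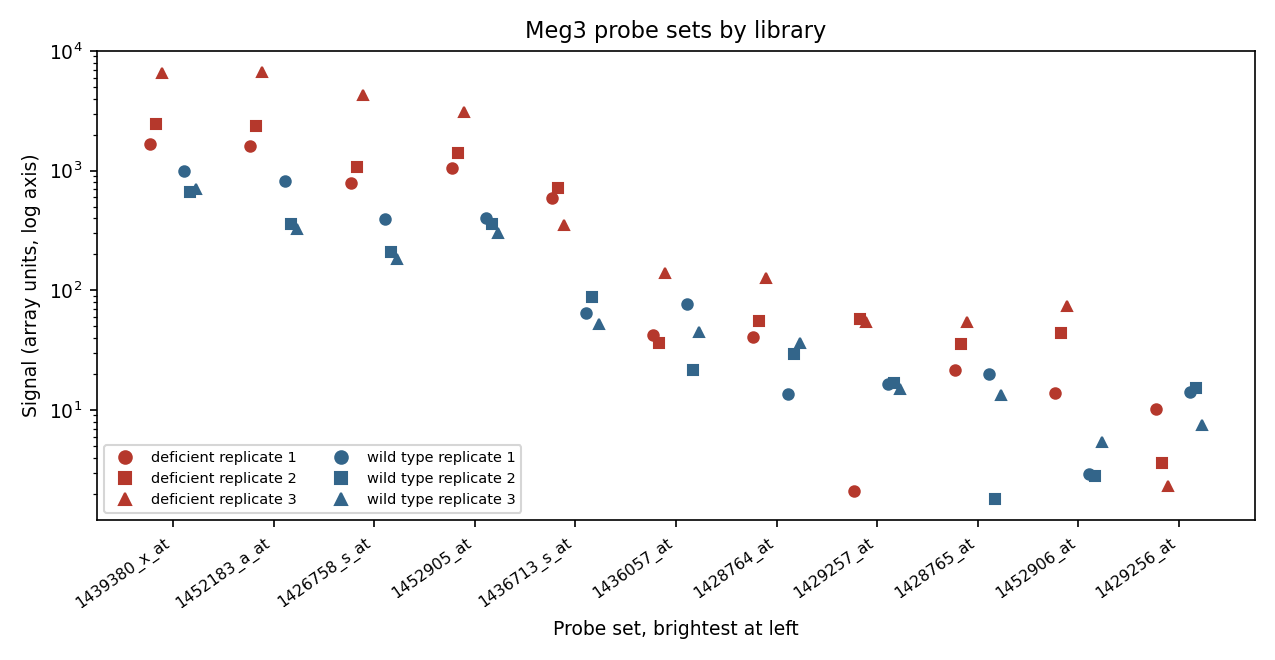
Signal of all 11 Meg3 probe sets in every library, on a log axis in array units, ordered from the brightest, with deficient libraries (red) left of wild type libraries (blue). The 4 brightest place deficient replicate 3 (triangle) at 3087 to 6665, above the other deficient libraries, whereas the fifth places it lowest among them at 352.6.

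Rian and Mirg are the other maternally expressed noncoding RNAs of the domain. Rian is the host of small nucleolar RNAs, and Mirg is the host of a large microRNA cluster. By position in RefSeq, 10 microRNA genes lie within Mirg, 3 within Rian and 2 within Meg3. The brightest Rian probe set read 556.9, 274.5 and 499.2 in deficient muscle, against 179.2, 145.7 and 108.3 in wild type muscle, a log2 difference of 1.48 (SE 0.285). All 4 Rian probe sets separated the groups, with differences of 1.11 to 1.48. The dimmest read 1.9 to 13.1 in wild type libraries and the next 6.6 to 14, so both passed the filter of 15.0 only through their deficient values. By limma 1 of the 4 was called, where 0.596% of all probe sets were called higher. Mirg read 120.9, 138.7 and 188.4 in deficient muscle, against 50.6, 25.4 and 22.4 in wild type muscle, a log2 difference of 1.78 (SE 0.264). The second Mirg probe set read 46, 58.7 and 57.2 in deficient muscle, against 18.4, 16.8 and 25.4 in wild type muscle. Over the domain, 16 of the 18 probe sets past the filter separated the groups, all 18 had a positive difference and their median was 1.33. Over all 27026 probe sets, 10.8% separated in that direction, 53.08% had a positive difference and the median was 0.03. The filter favoured probe sets that are bright in the deficient libraries, and some dim ones passed only through these. The Meg3 probe set that it left out had a lower mean in deficient muscle, 5.33 against 12.3. The members were also chosen on this contrast, so nothing is read from the counts of the domain. Rtl1 and Dio3, the other protein-coding genes of the domain, had no probe set of their own on the array.

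**Figure D3:**
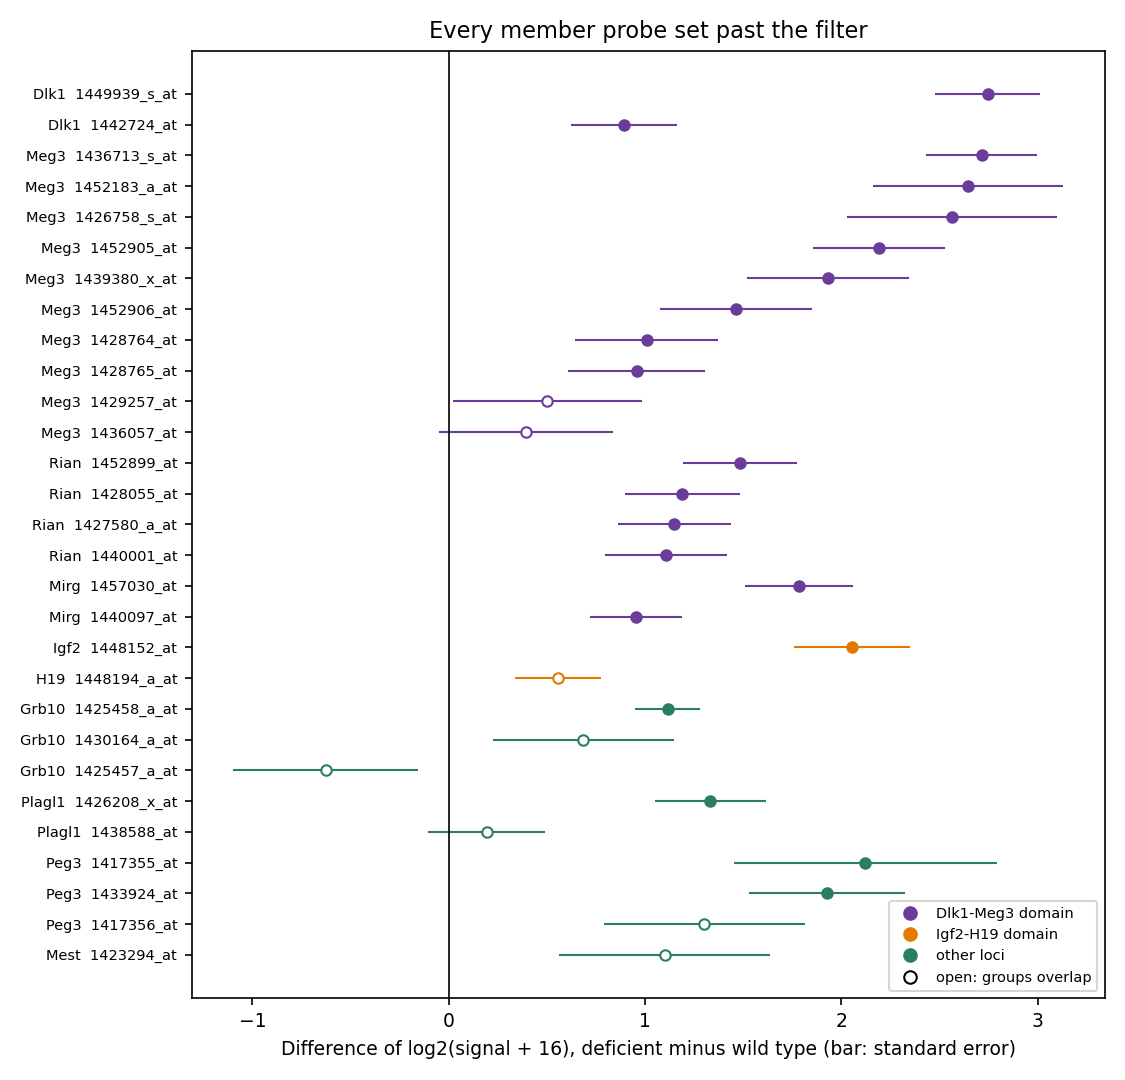
Difference of log2(signal + 16), deficient minus wild type, with its standard error, for the 29 member probe sets past the filter, coloured by locus. Filled points mark the 21 probe sets in which every deficient library was above every wild type library. Some dim probe sets passed the filter only through their deficient values. Of the others, 1 Grb10 probe set lies below 0.

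At the Igf2-H19 domain the groups were separate for the paternally expressed growth factor and overlapped for the maternally expressed RNA. Igf2 encodes insulin-like growth factor 2, the main IGF of fetal growth, which is also made by differentiating myoblasts. It read 2052, 1520.2 and 3599.9 in deficient muscle, against 612, 589.7 and 406.1 in wild type muscle. All deficient libraries lay above all wild type libraries, with a log2 difference of 2.05 (SE 0.299). A second Igf2 probe set was below the filter in both groups, at 4 to 18.5 in deficient and 2.9 to 7 in wild type libraries. The probe set of H19/Mir675 was bright in every library, at 6333.7, 8490.3 and 7454.6 in deficient muscle and 6415.7, 5643.8 and 3472.2 in wild type muscle. H19 RNA is abundant in fetal muscle and persists in adult muscle. Here the lowest deficient library fell within the wild type range, and the log2 difference was 0.56 (SE 0.218). Whether the differences of Igf2 and H19 differ from each other was not tested.

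The windows at the 4 annotated Igf2 starts hold 2, 14, 24 and 7 CG dinucleotides. The richest, at chr7:142658755-142659054 on the minus strand, is printed because Igf2 was the member of this domain that separated the groups, and capitals again mark CG.
Igf2: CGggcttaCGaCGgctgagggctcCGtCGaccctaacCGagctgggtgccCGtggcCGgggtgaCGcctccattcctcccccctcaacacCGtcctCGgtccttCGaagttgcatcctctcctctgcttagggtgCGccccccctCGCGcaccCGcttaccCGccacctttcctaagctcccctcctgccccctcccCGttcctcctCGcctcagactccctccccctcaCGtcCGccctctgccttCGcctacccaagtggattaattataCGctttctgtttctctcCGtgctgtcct
The count of 24 is reached by 19.98% of all start windows. The letters CCCTC, the core of the motif of the insulator protein CTCF that acts at this domain, occur 8 times on both strands together, and 65.95% of all windows hold at least 1 match. The array does not state which Igf2 start its probe sets follow.

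Both genes of the domain host a microRNA, and these are printed because the name of Mir675 stands on the H19 probe set. Capitals mark the seed, bases 2 to 8 of the mature microRNA, and the sequences are from RefSeq for GRCm38.p6.
mmu-miR-675-5p: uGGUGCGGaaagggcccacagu
mmu-miR-675-3p: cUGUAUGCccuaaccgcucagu
mmu-miR-483-5p: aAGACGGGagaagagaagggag
mmu-miR-483-3p: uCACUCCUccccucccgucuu
The first pair is cut from H19 RNA and the second lies within Igf2, and the 4 seeds differ from each other. The array signals are of the longer RNAs and do not measure the mature microRNAs.

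Grb10 encodes an adaptor that binds the insulin and IGF1 receptors and restrains their signalling. Its brightest probe set had narrow groups, at 1287.6, 1561.9 and 1598.3 in deficient muscle and 663.2, 675.3 and 678.2 in wild type muscle. The wild type SD was 7.96 signal units, and the log2 difference was 1.12 (SE 0.160). The other 2 Grb10 probe sets were dim and overlapped. They read 7.7 to 53.8 and 38.2 to 86.3 in deficient muscle, against 25 to 109 and 4.2 to 62.9 in wild type muscle, with log2 differences of -0.63 (SE 0.471) and 0.69 (SE 0.461). The mean over the 3 Grb10 probe sets gave a difference of 0.39.

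Plagl1, also called Zac1, encodes a zinc finger transcription factor that arrests the cell cycle and regulates other imprinted genes, among them Igf2 and H19 in mice. It read 2122.4, 1483.7 and 1209.8 in deficient muscle, against 625.2, 865.6 and 419.9 in wild type muscle, a log2 difference of 1.33 (SE 0.284). The groups did not overlap, but in contrast to most members the highest value was in deficient replicate 1 and the lowest deficient value in replicate 3. A dim second probe set read 12.5, 25.7 and 24.5 in deficient muscle, against 20.2, 8.7 and 20.1 in wild type muscle, and did not separate the groups.

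Peg3, also called Pw1, encodes a zinc finger protein that marks progenitor cells of muscle and other tissues. It read 863.6, 1320.2 and 3237.4 in deficient muscle, against 476.3, 396.8 and 326.3 in wild type muscle, a log2 difference of 1.93 (SE 0.402). A second probe set read 199.3, 260.4 and 1682.4 in deficient muscle, against 66.8, 173.1 and 62.2 in wild type muscle. The dimmest of the 3 overlapped, at 227.9, 114.6 and 630.2 in deficient muscle and 140.6, 111.8 and 52.6 in wild type muscle. All 3 were highest in deficient replicate 3. In 2 of them the other deficient libraries lay above all wild type libraries as well.

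The start windows of these transcription factor genes are printed because they bind DNA and are themselves imprinted through methylation of CG-rich stretches. Plagl1 lies at chr10:13090582-13090881 on the plus strand and Peg3 at chr7:6730370-6730669 on the minus strand, and capitals mark CG.
Plagl1: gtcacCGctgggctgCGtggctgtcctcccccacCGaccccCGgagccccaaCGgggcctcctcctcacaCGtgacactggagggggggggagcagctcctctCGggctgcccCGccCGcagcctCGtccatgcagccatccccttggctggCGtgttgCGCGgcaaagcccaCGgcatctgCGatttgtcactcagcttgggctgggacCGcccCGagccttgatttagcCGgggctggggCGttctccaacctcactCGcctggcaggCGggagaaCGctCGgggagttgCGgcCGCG
Peg3: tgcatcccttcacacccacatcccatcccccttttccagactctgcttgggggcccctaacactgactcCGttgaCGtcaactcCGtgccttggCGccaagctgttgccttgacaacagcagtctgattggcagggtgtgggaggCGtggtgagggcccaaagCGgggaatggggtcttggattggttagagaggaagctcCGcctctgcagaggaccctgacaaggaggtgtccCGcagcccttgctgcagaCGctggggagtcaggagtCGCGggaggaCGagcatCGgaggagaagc
The Plagl1 window has 26 CG dinucleotides, a count reached by 16.87% of all windows, and that of Peg3 has 13 (37.91%). The GC box letters GGGCGG occur 2 times in the Plagl1 window and 0 times in that of Peg3, on both strands together, and in 35.66% of all windows. The window at the first Grb10 start holds 45 CG dinucleotides (1.93% of all windows), the highest count among the members, while the Rian window holds 0.

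Mest, also called Peg1, encodes a protein of the hydrolase family that is used as a marker of growing mesoderm and of expanding fat. It read 789.3, 705.7 and 195.3 in deficient muscle, against 308.6, 323.8 and 96.9 in wild type muscle. Replicate 3 was the lowest library in each group, so the pooled values overlapped and the log2 difference of 1.10 had an SE of 0.547. Mest was the only one of the 9 members in the gene fit that was not called. Its 1 hosted microRNA gene, Mir335, is printed because it is read from the Mest locus, with seeds in capitals.
mmu-miR-335-5p: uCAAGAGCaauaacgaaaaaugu
mmu-miR-335-3p: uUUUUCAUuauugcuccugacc

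In most members a library of replicate 3 was at the edge of its group. Among the 10 brightest probe sets, deficient replicate 3 was the highest deficient library in 6, and wild type replicate 3 was the lowest wild type library in 8. These shares were not computed over all genes, and 4 of the 10 genes lie in the Dlk1-Meg3 domain, so nothing is read from them. The libraries were also compared within the 4 that held Y-linked transcripts and within the 2 that did not. In the libraries with Y-linked transcripts both deficient libraries were above both wild type libraries in 9 of 10 members, H19/Mir675 excepted, and in 27.5% of all genes. In the libraries without them the deficient library was above the wild type library in all 10, and in 48.8% of all genes. For members with all deficient libraries above all wild type libraries, both orders were fixed beforehand. The members were also chosen on this contrast, so nothing is read from these orders. Differences were larger without Y-linked transcripts in 9 of 10 members and in 46.2% of all genes. Meg3 differed by 3.21 there and by 1.29 with Y-linked transcripts, Peg3 by 3.25 and 1.27, Igf2 by 3.10 and 1.53, and Dlk1 by 3.52 and 2.36. Mest alone went the other way, with 0.90 and 1.20. The values without Y-linked transcripts rest on 1 library a group and have no replicate check.

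With Y-linked transcripts as a block, Mest was called too, and 9 of 9 members in the gene fit were called. In that fit 1144 genes, or 8.73%, were called in all, against 353 without the block. Nothing is read from these counts for the members, since the contrast is the one they were chosen on.

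**Figure D4:**
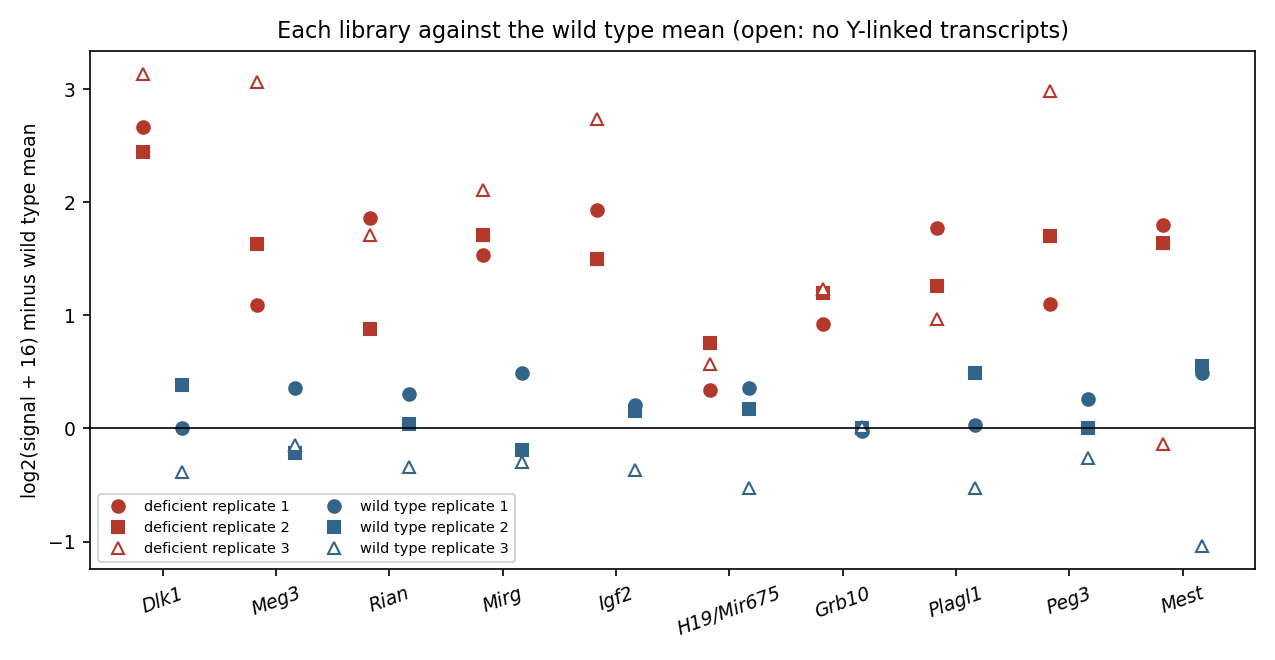
Value of log2(signal + 16) in each library minus the wild type mean, for the brightest probe set of each gene, with deficient libraries (red) left of wild type libraries (blue) and open triangles for replicate 3, which lacked Y-linked transcripts. Deficient replicate 3 stands at 3.13 for Dlk1, 3.07 for Meg3 and 2.98 for Peg3, and at -0.13 for Mest.

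Other imprinted genes were read for comparison. Because the members were chosen on this contrast, nothing is read from how they differ from these genes. A list of 26 other imprinted genes of the fetal growth network had 22 genes with a probe set of their own, of which 14 passed the filter. By limma 0 of the 14 were called, and 4 had an unadjusted p under 0.05. Of all 13104 genes, 353, or 2.69%, were called in either direction, and 2479 had an unadjusted p under 0.05. Of the 14, 7 had a positive and 7 a negative difference, and their median was 0.03, beside 0.02 over all genes. The groups did not overlap in 4 of them, with 3 higher (Igf2r, Ube3a and Airn) and 1 lower (Gnas) in deficient muscle. Igf2r, which encodes the receptor that clears IGF2 from the cell surface, read 364, 301.7 and 474.2 in deficient muscle, against 223.4, 231.5 and 211.8 in wild type muscle. The groups did not overlap, with a log2 difference of 0.71 (SE 0.203, limma adjusted p = 0.0997). Slc38a4, a gene of an amino acid transporter, read 264.7, 285 and 536.7 in deficient muscle, against 716.8, 850.8 and 472.4 in wild type muscle, with a log2 difference of -0.91 (SE 0.301, limma adjusted p = 0.142).

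Further genes of that list are named after their values were seen. Ube3a, a ubiquitin ligase gene, read 1089.2, 1676.9 and 1617.6 in deficient muscle, against 954.9, 929.2 and 1014.2 in wild type muscle (0.56, SE 0.193, limma adjusted p = 0.153). Airn, the noncoding RNA antisense to Igf2r, read 89.5, 91.3 and 123.4 in deficient muscle, against 37.6, 73.3 and 64.6 in wild type muscle (0.68, SE 0.244, limma adjusted p = 0.173). Neither passed, although the groups were separate in these probe sets, the brightest of each gene. The other Airn probe sets past the filter, at 0.82 and 0.93, also separated the groups. Among the other Ube3a probe sets past it, that at 0.75 separated them, and the rest overlapped, from -1.05 to 0.27. Cdkn1c, a cell cycle inhibitor gene of the growth network, read 492.5, 583.5 and 463.7 in deficient muscle, against 709.2, 832 and 247.8 in wild type muscle. Its wild type range held all deficient values. Ndn, the necdin gene, read 928.2, 738.3 and 464.3 in deficient muscle, against 824.8, 735.8 and 409 in wild type muscle. Dcn, which encodes the matrix proteoglycan decorin, read 6770, 6868.1 and 5791.9 in deficient muscle, against 5741.1, 6480.4 and 5307 in wild type muscle. For Ndn and Dcn the groups overlapped. The 8 genes under the filter, among them Peg10, Phlda2 and Ascl2, reached 32 signal units at most.

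**Figure D5:**
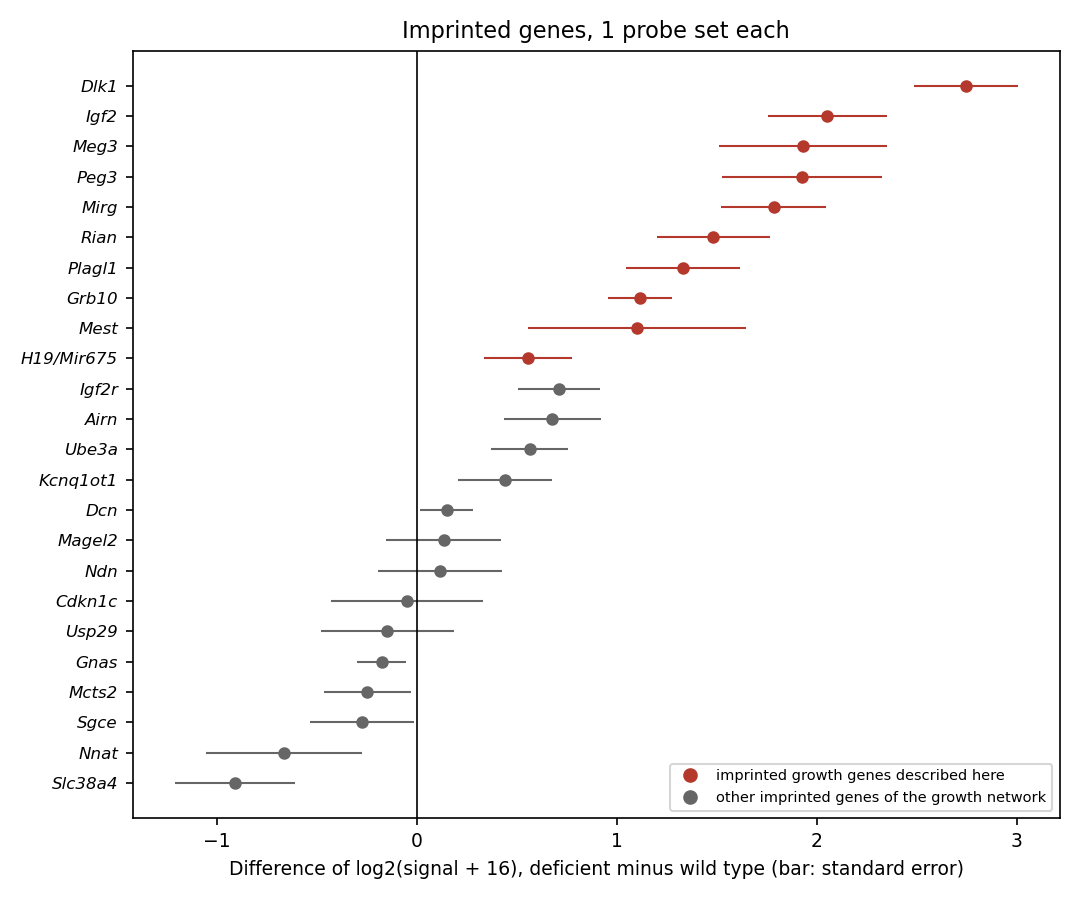
Difference of log2(signal + 16), deficient minus wild type, with its standard error, for the 10 imprinted growth genes (red, upper rows) and for 14 other imprinted genes of the growth network past the filter (grey), 1 probe set per gene. The red points lie between 0.56 and 2.75 and the grey points between -0.91 and 0.71. The red genes were chosen on this contrast, so nothing is read from how the colours differ.

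Genes that act with Igf2 and Grb10 changed in both directions. Of 17 genes of the IGF ligand, receptors, binding proteins and adaptors, 13 were tested, of which 2 rose, 1 fell and 10 did not pass, with 8 at an unadjusted p under 0.05 and a median difference of 0.05. Igf2r is counted in this list too. Igfbp4, the gene of an IGF binding protein, rose to 2464.7, 3099.8 and 2184 in deficient muscle, against 1608.4, 1147.5 and 1260.3 in wild type muscle (0.94, SE 0.189, limma adjusted p = 0.0357). Igfbp3, the main IGF carrier of serum, rose to 553.7, 395.9 and 1041 in deficient muscle, against 225.3, 164.6 and 246.8 in wild type muscle (1.48, SE 0.322, limma adjusted p = 0.0453). Grb14, a relative of Grb10 that also binds the insulin receptor, fell to 55.7, 92.2 and 36.2 in deficient muscle, against 226.7, 276.8 and 172.8 in wild type muscle (-1.68, SE 0.286, limma adjusted p = 0.0197).

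Leaving out 1 library kept the direction of all 3, with differences of 0.80 to 1.08 for Igfbp4, 1.10 to 1.78 for Igfbp3 and -1.96 to -1.43 for Grb14, but moved their adjusted p. The call of Igfbp4 was lost in 5 of 6 fits with 1 library left out, with a limma adjusted p of 0.0731 and 0.129 without deficient replicates 1 and 2 and of 0.08, 0.15 and 0.0942 without wild type replicates 1, 2 and 3. That of Igfbp3 was lost in 5 as well, at 0.0953 and 0.0564 without deficient replicates 1 and 2 and at 0.144, 0.17 and 0.0775 without wild type replicates 1, 2 and 3. That of Grb14 was lost in 3, at 0.0607 without deficient replicate 1 and at 0.0963 and 0.0848 without wild type replicates 1 and 2. With the mean of a gene's probe sets, Igfbp4 (0.74, limma adjusted p = 0.149) and Igfbp3 (1.39, 0.0508) were not called. Grb14 was still called there (0.0209). Igf1 and Igf1r are named after their values were seen. Igf1, the postnatal IGF, read 1903.6, 2069.7 and 906.1 in deficient muscle, against 1350.5, 1541.7 and 734.4 in wild type muscle. Igf1r, the receptor that IGF1 and IGF2 share, read 278.7, 322.4 and 908.5 in deficient muscle, against 157.1, 126.9 and 280.7 in wild type muscle. Both overlapped between the groups and did not pass (limma adjusted p = 0.577 and 0.162).

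Because Dlk1 is related to the Notch ligands, Notch genes were read as a list. Of 13, 12 were tested and 0 were called by limma, with 4 at an unadjusted p under 0.05, 6 positive and 6 negative differences and a median of -0.01. In 4 all deficient values were above all wild type values, and in 4 all were below. Over all genes these shares were 12.3% and 12.4%. Dll4, a Notch ligand of vessels, read 11.8, 21.5 and 35.3 in deficient muscle, against 57.1, 82.4 and 66.1 in wild type muscle (-1.16, SE 0.270, limma adjusted p = 0.0586). Notch2 read 301, 303.1 and 294.1 in deficient muscle, against 202.9, 210.1 and 218 in wild type muscle (0.48, SE 0.167, limma adjusted p = 0.161). Neither pair of groups overlapped, in opposite directions.

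Genes of fetal and regenerating muscle were read because many imprinted genes share that stage of expression. Among the 10 tested, 6 rose, 1 fell and the other 3 did not pass, and the median difference was 2.39. All 10 had an unadjusted p under 0.05. The embryonic myosin gene Myh3 rose to 539.1, 1730.7 and 1199.6 in deficient muscle, against 30.3, 37.8 and 30.6 in wild type muscle (limma adjusted p = 6.39e-04). Myl4, Mymx, Tnnt2, Myh8 and Chrng (the last named after its values were seen) were the other genes that rose, and Actc1, the cardiac actin gene of fetal muscle, fell. The calls of Chrng and Actc1 were lost in 4 fits each with 1 library left out, at most at 0.132 without deficient replicate 2 and at 0.128 without wild type replicate 1. Among the 6 that rose, Myh3, Myl4, Mymx, Tnnt2 and Chrng were highest in deficient replicate 2. Myh8 read 509.9, 1665.3 and 1750.1 in deficient muscle, highest in replicate 3, against 15, 105.6 and 35.9 in wild type muscle.

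Genes whose pattern over the 6 libraries was most like that of Dlk1, by the root mean square difference of log2 values centred on each gene's mean, were Mt1 (0.310), Agtr2 (0.363), Mt2 (0.392), Ankrd1 (0.406) and Atp1b4 (0.487). Agtr2, the angiotensin II type 2 receptor gene, read 126.6, 113.9 and 235.7 in deficient muscle, against 22.1, 5.7 and 5.2 in wild type muscle. For H19/Mir675 the nearest were 5430416N02Rik, Zc3h7a, Adcyap1r1, Traf1 and Ccdc8, at 0.0801 to 0.0943. With 6 libraries in 2 groups, such likeness mostly restates the difference between the groups.

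Markers of cell types that could carry imprinted transcripts were read beside the members. The 9 satellite cell and myoblast markers summed to 5197 to 6299 in deficient and 3524 to 4998 in wild type libraries, without overlap. Des made up most of the sum in every library, so the sum mostly restates Des. By limma 0 of 9 were called, with 2 at an unadjusted p under 0.05. Itga7 was nearest to the threshold (0.76, SE 0.178, limma adjusted p = 0.0572), followed by Vcam1 (0.49, SE 0.213, limma adjusted p = 0.255). Pax7, which defines satellite cells and is named after its values were seen, overlapped between the groups. It read 40.4, 63.3 and 60.2 in deficient and 49.9, 51 and 49.8 in wild type libraries. Des, with the highest signal of this list, was at 4254 to 5154 in deficient and 2783 to 4211 in wild type libraries.

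The 9 detected fibroblast and fibro-adipogenic progenitor markers summed to 17192 to 23425 in deficient and 12826 to 20980 in wild type libraries, led by Col3a1. By limma 0 of 9 were called, with 3 at an unadjusted p under 0.05. Pdgfrb had the smallest p (0.84, SE 0.257, limma adjusted p = 0.119). Pdgfra, which defines these progenitors, read 783.1, 572.4 and 908.9 in deficient and 498.1, 487.9 and 465.8 in wild type libraries (0.60, SE 0.200, limma adjusted p = 0.145). Within the deficient group, Pdgfra and Pdgfrb were highest in replicate 3. Lum, Dpt, Pi16, Cd34, Col3a1, Col1a1 and the sum of the list were lowest there. The 9 macrophage markers, led by Lyz2, summed to 10219, 7471 and 3777 in the deficient and 3891, 3052 and 2727 in the wild type libraries. Of these 1 was called by limma, Mpeg1, which rose (2.78, SE 0.286, limma adjusted p = 0.00234). In all, 6 of the 9 had an unadjusted p under 0.05. All 9 had a positive difference, beside 52.59% of all genes, with a median of 0.89. In 3 of them the groups did not overlap, beside 12.3% of all genes in that direction. Within the deficient group the macrophage sum was highest in replicate 1, the highest library for Rian, Plagl1 and Mest, and lowest in replicate 3, the highest library for Dlk1, Meg3, Mirg, Igf2, Grb10 and Peg3.

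White adipocyte markers overlapped between the groups, with sums of 10604 to 15627 in deficient and 11236 to 15524 in wild type libraries, led by Fabp4. By limma 0 of 6 were called, with 1, Lep, at an unadjusted p under 0.05 (limma adjusted p = 0.128), and the next was Retn (limma adjusted p = 0.401). Brown adipocyte markers summed to 5522 to 6954 in deficient and 8185 to 10198 in wild type libraries. Cox8b, which was not called (limma adjusted p = 0.108), made up most of this sum in every library, so the sum mostly restates Cox8b. Of 7 tested, led by Cox8b, 4 had an unadjusted p under 0.05, 1 rose and 2 fell. Dio2 rose (limma adjusted p = 0.0453), and Ucp1 (0.00443) and Cidea (0.0211) fell. The call of Dio2 was lost without 5 of the 6 libraries, at most at 0.171 without deficient replicate 2. That of Cidea was lost without 4, at most at 0.106 without wild type replicate 1. With the mean of its probe sets, Dio2 had a difference of 0.58 (limma adjusted p = 0.248), against 1.48 for its brightest probe set. Endothelial markers summed to 1239.5 to 1666.5 in deficient and 1376 to 2242 in wild type libraries. Of the 8, led by Tek, 0 were called by limma and 1, Emcn, had an unadjusted p under 0.05 (limma adjusted p = 0.141, and 0.574 for Tek). Of the 7 tested hair follicle and keratinocyte markers, led by Krt25, all had a negative difference and 5 had an unadjusted p under 0.05. Tchh fell (limma adjusted p = 0.0486), a call lost without 5 of the 6 libraries (at most 0.172 without wild type replicate 2). Wild type replicate 3, the wild type library with the least of these markers, had the lowest wild type signal in 8 of the 10 members. This share was not computed over all genes. No marker was at 0 in all libraries. The part of any of these cells in the differences of the members was not tested.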

How the data were processed

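The authors deposited linear signal intensity, with 1 value for each of 45101 probe sets on every array. Biotin-labelled RNA was hybridized on Affymetrix arrays, per the labels' protocols. The sources used here do not name the algorithm behind the signals. The mean of each array without its lowest and highest 2% was 100.001, so the arrays had been scaled. Array medians of log2(signal + 16) differed by 0.226, below the limit of 0.5 for centring, so no further normalization was applied. Groups came from sample titles. The annotation gave 1 gene symbol to 34945 probe sets, several to 932 and none to 9160, controls (64) apart. Entrez identifiers matched 34741 of those with 1 symbol to RefSeq genes of GRCm38.p6, and 0 symbols changed.

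Probe sets with a mean under the 40th percentile were left out. limma 3.58.1 (R 4.3.3; lmFit, eBayes with intensity trend, two-sided, Benjamini-Hochberg) was fitted over 13104 genes, each read by its brightest probe set, and over 27026 probe sets for the other probe sets of members and for H19. Genes were called at an adjusted p under 0.05. The steps were tested on simulated data. The members and lists were chosen with earlier results of these data known. Named genes were the members, up to 6 called genes of each list or else its 2 of smallest p, the brightest marker of each list, Lama2, and the 5 genes most like Dlk1 and H19. Alternatives were median centring, quantile normalization, pseudocounts of 1 and 32, no filter and the 60th percentile, the mean of a gene's probe sets, other priors, a replicate block, a block for Y-linked transcripts (Eif2s3y above 100) and each library left out. A fit of the 4 libraries with Y-linked transcripts was added after seeing the data.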

Additional observations from a re-analysis of the deposited data

How the results depend on the processing

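No member changed sign under any of its alternatives (18, and 17 for H19/Mir675). The differences of Dlk1 and Igf2 ran from 1.82 to 3.17 and from 1.53 to 2.33. The members were chosen on this contrast, so the signs and calls are no independent support. Of the 9 members in the gene fit, 8 were called. The number was 5 with no filter, 5 with the mean of the probe sets of a gene, 4 with no intensity trend, 6 with median centring and 2 to 8 with 1 library left out (8 without deficient replicate 3, 2 without wild type replicate 2). The 353 genes called became 216 with no filter, 159 with no intensity trend, 1144 with the block for Y-linked transcripts, 823 in the libraries with Y-linked transcripts only and 64 to 665 with 1 library left out (64 without wild type replicate 1, 665 without deficient replicate 3). Of the other imprinted genes, 0 were called, against 1 with the mean of the probe sets (Airn), 1 with the block for Y-linked transcripts (Igf2r), 2 in the libraries with Y-linked transcripts only (Slc38a4 and Nnat, both lower) and 0 to 1 with 1 library left out. The 3 genes called in the IGF list became 0 to 8, the 0 of the Notch list 0 to 1 and the 7 of the fetal muscle list 5 to 9. The causes were not tested. The sample titles state no pairing, and the main fit used none. Deviations of libraries of the same number correlated over genes at 0.146, 0.0674 and 0.298. Those of different number correlated at -0.292 to 0.205, so these values do not settle whether the numbers pair the samples. With the replicate number as a block, 855 genes and 9 members were called, and deficient replicate 1 correlated best with wild type replicate 2 (0.205). Dim probe sets near the filter and 3 arrays per group limit the precision.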
